A study of Mus musculus with 84 samples.

Results

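The matrix metalloproteinases (MMPs) and their tissue inhibitors (TIMPs) were followed from mouse embryonic fibroblasts (MEFs) through reprogramming to embryonic stem cells (ESCs). The 9 genes were chosen by symbol among the 18909 genes of the count table, and all were found: the proteases Mmp2, Mmp3, Mmp9, Mmp10, Mmp13 and Mmp14 and the inhibitors Timp1, Timp2 and Timp3. Gene expression had been measured in 10 groups of 3 biological replicates with STRT RNA-seq, which reads the 5′ end of transcripts. The MEFs were wild-type cells of strain 129, grown in medium with FGF2 and heparin. The ESCs were the TNG MKOS line, grown with LIF. Reprogramming cells were MEFs made from this line through chimeric embryos, so that all of them descend from 1 ESC line, with a Nanog-GFP reporter and, at the Sp3 locus, the reprogramming cassette (MKOS: Myc, Klf4, Pou5f1 and Sox2) that doxycycline turns on together with mOrange. They received doxycycline at 300 ng/ml, vitamin C and LIF, and a vector with either BFP (Cont) or constitutively active Smad3 (+Sm3CA). On days 3, 6, 8 and 10 cells were flow-sorted for mOrange, and per the study's methods the transgenic MEFs were a minority among wild-type MEFs in reprogramming cultures. Reprogramming cells therefore differ from the wild-type MEFs in source, medium, vector and sort as well as in the factors. The question was how expression with Smad3CA departs from that of control reprogramming, day by day.

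MMPs are secreted or membrane-bound zinc proteases that cut collagens and other proteins of the extracellular matrix. They are made as inactive proenzymes, and TIMPs bind the active site of the mature enzymes. Fibroblasts are a main source of both, and TGF-β signaling, which acts through SMAD2 and SMAD3, is a classical regulator of several of these genes. The gelatinases are Mmp2 and Mmp9, the stromelysins Mmp3 and Mmp10, and Mmp13 is a collagenase of rodents. Mmp14 is a membrane-type MMP that activates pro-MMP2 together with Timp2.

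Levels are given as CPM (the share of a library's reads, scaled to a common library size with TMM), and differences as log2 fold changes with their standard error (SE) from edgeR's quasi-likelihood test, called at a Benjamini-Hochberg adjusted p under 0.05. Libraries held 1008596 to 2296059 reads. Reads of the 9 genes differed widely in number, from 39418 for Timp1 to 59 for Mmp9 over the 30 libraries. Mmp9 had 3 reads or fewer in 24 of them and passed the low-count filter in none of the fits, so 8 of the 9 genes were tested in reprogramming cells. In MEFs, fibroblast markers summed to 2551 to 3626 CPM and all 8 were detected. Myeloid markers were found in MEFs as well, at 1221, 730 and 301 CPM in replicates 1, 2 and 3, with all 8 detected. MEF replicate 1 also had the highest Mmp3, Mmp10 and Mmp13 of the MEFs, and a link was not tested. In ESCs these markers summed to 2.53 to 3.42 CPM, against 19037 to 33936 CPM for 8 ESC markers. Among the replicates, Cont replicate 1 on day 10 stood apart, with the lowest value of its group for 8 of the 9 genes. It also had the lowest sum of 8 myeloid markers there, 421 CPM against 1703 and 1784 CPM. Its fibroblast markers summed to 481 CPM against 1159 and 1152 CPM, within the +Sm3CA range of that day (405 to 551 CPM).

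Mmp13, Mmp3 and Mmp10 lie on the same strand of chromosome 9, within 237.7 kb (chr9:7272514-7510240, GRCm38, GENCODE). Mmp2 is at chr8:92827291-92853420, Mmp9 at chr2:164940780-164955850 and Mmp14 at chr14:54431612-54445364, all on the plus strand. Timp1 (chrX:20870166-20874735, plus strand) lies within Syn1 and Timp3 (chr10:86300372-86349506, plus strand) within Syn3, both on the minus strand. Timp2 (chr11:118301069-118355740, minus strand) contains Cep295nl on its own strand. Whether counting used strand is not given in the sources used here, but Syn1 and Syn3 had at most 7 and 5 reads in any library. RefSeq promoters of GRCm38.p6 were matched for 7 of the 9 genes, all but Mmp2 and Mmp9. The 250 bases upstream of the start site are shown for the 3 chromosome 9 MMPs, because each holds an AP-1-type motif close to a TATA box, and for Timp1 and Timp3, the genes with the most stable difference between Cont and +Sm3CA below. Capitals mark TGANTCA, the site class of AP-1, and TATAAA.
Mmp13, chr9:7272264-7272513, plus strand: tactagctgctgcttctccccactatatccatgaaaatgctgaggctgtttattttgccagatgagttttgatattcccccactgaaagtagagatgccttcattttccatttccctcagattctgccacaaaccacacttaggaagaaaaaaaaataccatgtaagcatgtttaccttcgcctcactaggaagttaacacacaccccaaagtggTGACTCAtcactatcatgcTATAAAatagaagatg
Mmp3, chr9:7445572-7445821, plus strand: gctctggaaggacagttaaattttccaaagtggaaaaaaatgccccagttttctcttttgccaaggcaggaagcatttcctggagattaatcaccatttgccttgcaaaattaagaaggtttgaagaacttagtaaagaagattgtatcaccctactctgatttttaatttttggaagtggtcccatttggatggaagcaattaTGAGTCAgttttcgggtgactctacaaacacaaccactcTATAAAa
Mmp10, chr9:7502092-7502341, plus strand: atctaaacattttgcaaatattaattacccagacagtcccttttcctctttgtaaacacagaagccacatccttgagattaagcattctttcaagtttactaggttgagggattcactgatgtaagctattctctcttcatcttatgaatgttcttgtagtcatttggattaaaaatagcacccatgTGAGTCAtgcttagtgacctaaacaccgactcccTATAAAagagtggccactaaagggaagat
Timp1, chrX:20869916-20870165, plus strand: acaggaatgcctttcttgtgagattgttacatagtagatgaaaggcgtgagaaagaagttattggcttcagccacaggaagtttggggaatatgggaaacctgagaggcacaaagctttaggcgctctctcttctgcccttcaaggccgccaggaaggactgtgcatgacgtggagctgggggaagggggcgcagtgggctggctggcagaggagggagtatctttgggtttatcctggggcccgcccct
Timp3, chr10:86300162-86300411, plus strand: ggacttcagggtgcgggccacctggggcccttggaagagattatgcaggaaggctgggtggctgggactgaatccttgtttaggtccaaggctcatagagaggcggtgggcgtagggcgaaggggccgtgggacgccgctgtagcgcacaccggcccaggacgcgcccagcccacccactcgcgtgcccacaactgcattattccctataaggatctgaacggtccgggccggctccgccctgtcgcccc
TGANTCA was found in Mmp13, Mmp3 and Mmp10, starting 35, 46 and 63 bases before the start site. TATAAA followed it in each of them, starting 16, 7 and 29 bases before the start site. Neither stood in the windows of Mmp14, Timp1, Timp2 or Timp3, which reach 50 bases past the start. Over both strands, 7.81% of all 32851 promoter windows held TGANTCA and 13.6% held TATAAA, while 0.791% held both upstream on the gene's strand. AGGAAG, the core of PEA3-type ETS sites, was in 35.4% of windows and in those of Mmp3, Mmp13, Mmp14, Timp1 and Timp3. GC content of the printed stretch was 37.2 to 40.4% in the chromosome 9 MMPs, 54.4% in Timp1 and 65.6% in Timp3. These are matches of letters, and binding was not measured here.

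**Figure D1:**
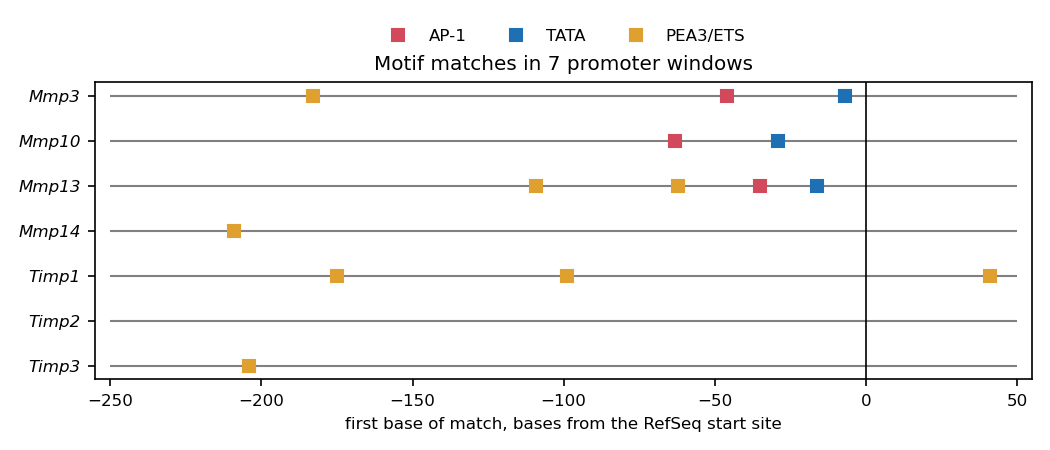
Motif matches in the 7 RefSeq promoter windows. The x axis gives the first base of each match in bases from the start site, and colors give the motif. AP-1 and TATA matches are seen for Mmp3, Mmp10 and Mmp13, all within 63 bases upstream.

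The inhibitors were highest in MEFs and lowest in ESCs, and on day 10 Cont and +Sm3CA libraries did not overlap in Timp1 and Timp3. Timp1, a secreted inhibitor of most MMPs, was at 2899, 2863 and 2036 CPM in MEFs. In Cont it was at 850, 1187 and 1129 CPM on day 3, 388, 450 and 393 on day 6, 537, 626 and 840 on day 8, and 892, 1459 and 1210 on day 10. In +Sm3CA it was at 706, 1529 and 1137 CPM on day 3, 235, 408 and 283 on day 6, 471, 326 and 510 on day 8, and 326, 491 and 259 on day 10. The series overlapped on day 3, and both were lower on day 6, where they overlapped too. On day 8 all Cont libraries were already above all +Sm3CA libraries, though not called, and on day 10 they were again. Groups did not overlap in this direction for 7.83% of all genes on day 8 and 10.8% on day 10. ESCs had 91.5, 26.2 and 51.5 CPM, below every other library. In order of mean level, MEFs (2599 ± 488 CPM, SD, n = 3) stood first and ESCs (56.4 ± 32.9) last. Cont day 10 (1187 ± 285), +Sm3CA day 3 (1124 ± 411) and Cont day 3 (1056 ± 180) followed MEFs and overlapped one another. Cont day 8 (668 ± 156), +Sm3CA day 8 (436 ± 97.3), Cont day 6 (410 ± 34.6), +Sm3CA day 10 (359 ± 120) and +Sm3CA day 6 (309 ± 89.4) came next, with overlap among the last 4.

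Timp3, which is bound to the extracellular matrix and also inhibits ADAM proteases, was at 375, 348 and 389 CPM in MEFs. Cont libraries had 74.8, 123 and 99.6 CPM on day 3, 120, 106 and 91.8 on day 6, 153, 162 and 207 on day 8, and 101, 305 and 296 on day 10. The +Sm3CA libraries had 148, 89.7 and 162 CPM on day 3, 68.7, 93.5 and 93.6 on day 6, 113, 156 and 102 on day 8, and 85.0, 69.3 and 79.3 on day 10. On day 10 all 3 Cont libraries were above all 3 +Sm3CA libraries, replicate 1 by the smallest margin. ESCs had 14.4, 2.28 and 5.06 CPM. The order of means ran from MEFs (371 ± 20.7) through Cont day 10 (234 ± 115) and Cont day 8 (174 ± 28.9), which overlapped, to ESCs (7.25 ± 6.36). Neighbours among the other reprogramming groups overlapped, between 133 ± 38.5 CPM in +Sm3CA on day 3 and 77.9 ± 7.97 CPM in +Sm3CA on day 10.

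Timp2, which inhibits MMPs and takes part in pro-MMP2 activation, was at 320, 302 and 432 CPM in MEFs. It was at 64.6, 95.6 and 87.5 CPM in Cont and 88.3, 65.9 and 93.1 CPM in +Sm3CA on day 3. Day 6 values were 34.5, 43.0 and 33.4 CPM in Cont and 26.0, 41.9 and 28.2 CPM in +Sm3CA, and all 6 libraries were below those of day 3. On day 8 they were 42.4, 37.5 and 88.6 CPM in Cont and 35.9, 41.5 and 46.4 CPM in +Sm3CA. On day 10 Cont libraries were at 28.8, 126 and 88.1 CPM and +Sm3CA libraries at 27.1, 25.8 and 34.9 CPM, so that Cont replicate 1 lay within the +Sm3CA range. ESC libraries had 4, 0 and 2 reads.

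**Figure D2:**
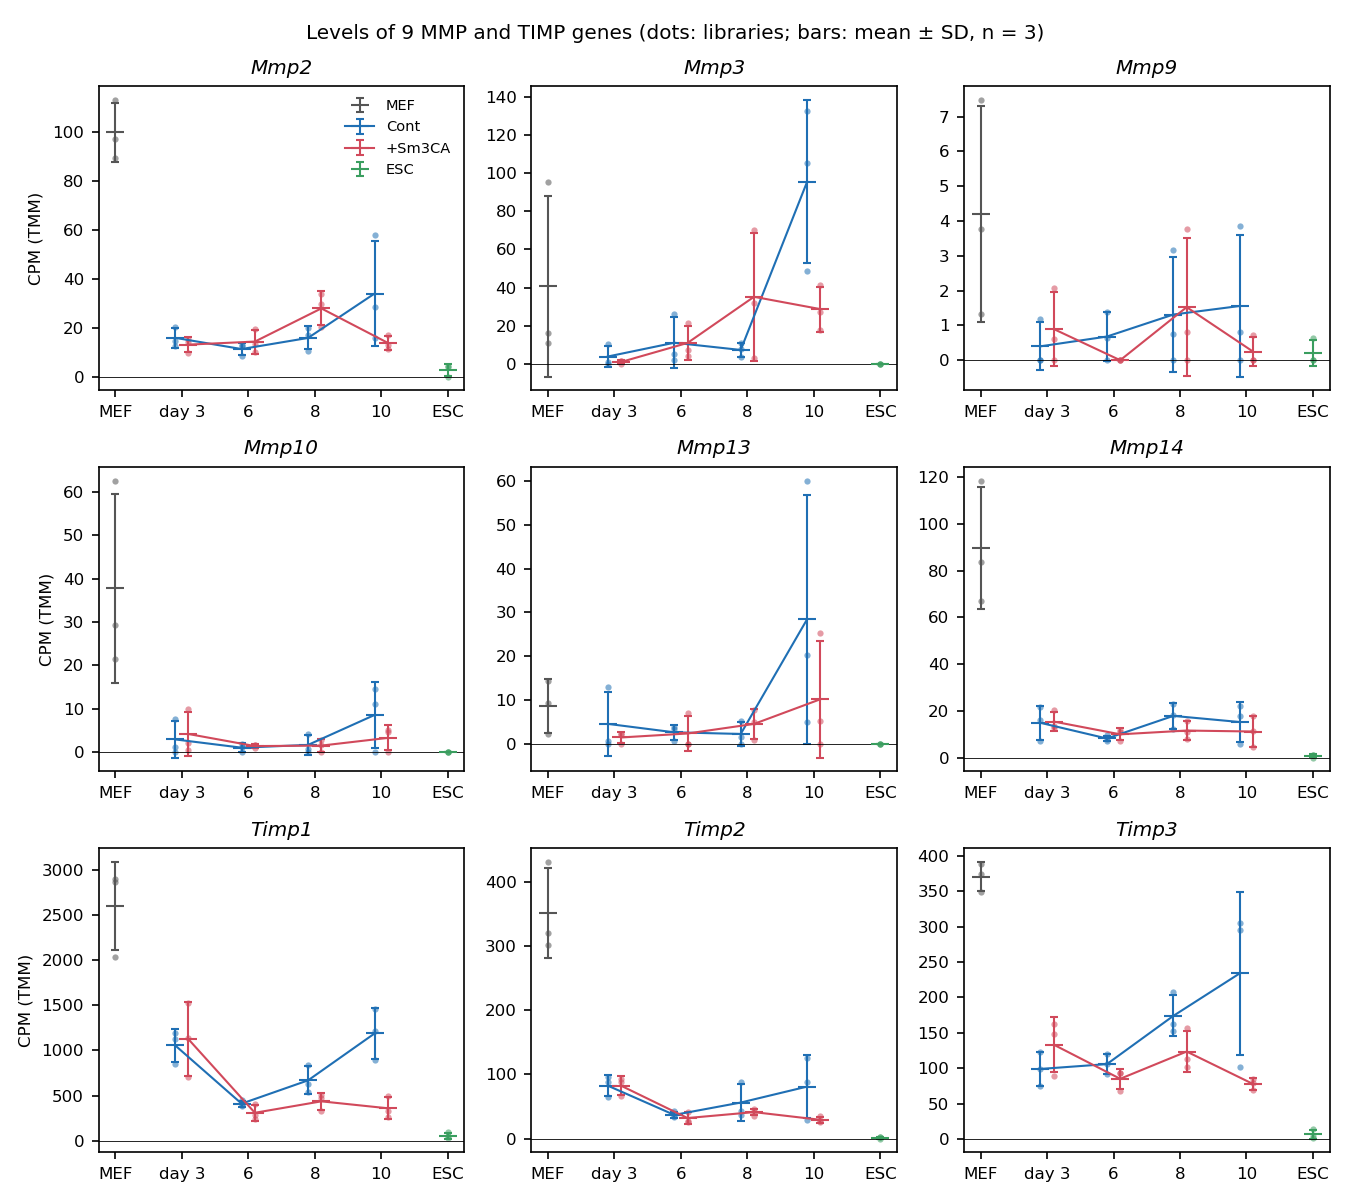
Levels of the 9 genes in the 30 libraries. The y axis gives CPM with TMM scaling on a scale of its own for each gene, dots are libraries, and bars are the mean ± SD of 3 replicates for MEF, Cont (blue), +Sm3CA (red) and ESC; on day 10 Timp1 stands at 892 to 1459 CPM in Cont and 259 to 491 CPM in +Sm3CA.

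Mmp3, a stromelysin that also activates other proMMPs, was at 95.2, 16.0 and 10.8 CPM in MEFs, where replicate 1 held 140 of the reads against 24 and 20. Cont libraries had 1.20, 10.3 and 0 CPM on day 3, 5.13, 26.3 and 1.79 on day 6, 7.58, 3.54 and 10.7 on day 8, and 48.6, 133 and 105 on day 10. The +Sm3CA libraries had 1.56, 0 and 1.40 CPM on day 3, 21.4, 4.25 and 7.27 on day 6, 32.2, 70.0 and 3.27 on day 8, and 17.7, 41.3 and 27.0 on day 10. Levels near day 3 rest on 0 to 12 reads a library, whereas the day 10 values rest on 19 to 172 reads. By mean, Mmp3 was highest of all groups in Cont on day 10, and its libraries did not overlap those of +Sm3CA on that day. They did overlap those of MEFs and of +Sm3CA on day 8. No read was found in the 3 ESC libraries, which with 3 reads a library allows up to 2.61 CPM.

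Mmp13 and Mmp10, the neighbours of Mmp3, were sparser. Mmp13 had 14.3, 9.32 and 2.16 CPM in MEFs and means of 4.50 ± 7.29, 2.57 ± 1.73 and 2.19 ± 2.67 CPM in Cont on days 3, 6 and 8. On day 10 it was at 4.94, 60.1 and 20.3 CPM in Cont and at 0, 5.16 and 25.3 CPM in +Sm3CA, which overlapped. Mmp10 had 62.6, 29.3 and 21.6 CPM in MEFs, and means between 1.04 ± 0.971 and 8.58 ± 7.64 CPM in all 8 reprogramming groups. Cont replicate 1 had no Mmp10 read on days 3, 6, 8 and 10, while replicates 2 and 3 had 19 and 18 reads on day 10. ESCs had no read of either gene.

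Of the gelatinases, Mmp2 had 97.3, 89.2 and 113 CPM in MEFs and means of 11.3 ± 2.52 to 15.9 ± 4.04 CPM in Cont from day 3 to day 8. On day 8 it was at 29.6, 33.8 and 20.2 CPM in +Sm3CA against 19.7, 10.6 and 17.1 CPM in Cont. On day 10 the order was the opposite, with 13.1, 16.9 and 11.3 CPM in +Sm3CA against 15.6, 57.8 and 28.4 CPM in Cont, where replicate 1 lay within the +Sm3CA range. Mmp9 had 11, 2 and 7 reads in MEFs and 9 reads or fewer in every other library. Mmp14 was at 83.7, 67.2 and 119 CPM in MEFs and at means of 8.17 ± 1.26 to 17.9 ± 5.48 CPM in the 8 reprogramming groups, whose libraries lay between 4.42 and 23.1 CPM. ESCs had 6, 0 and 5 reads of Mmp2 and 2, 1 and 0 reads of Mmp14.

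Against Cont on the same day, +Sm3CA was called lower in all 3 inhibitors and in 1 of 5 tested proteases on day 10, and in none on the other days. Timp1 fell by 1.74 on the log2 scale (SE 0.25, edgeR adjusted p = 1.6e-05), Timp3 by 1.61 (SE 0.27, adjusted p = 0.00015) and Timp2 by 1.50 (SE 0.33, adjusted p = 0.0046). Among the 5 tested MMPs, Mmp2 fell by 1.30 (SE 0.36, adjusted p = 0.032). Called lower in all were 4 of the 8 tested genes, against 2.74% of all 10237 genes tested. Their median log2 fold change was -1.50 and that of all genes -0.01. Timp1, Timp3 and Mmp3 also did not overlap between the groups, which held in this direction for 10.8% of all genes. Mmp3 had a log2 fold change of -1.74 (SE 0.58) but did not pass (adjusted p = 0.089), with a 95% interval of -2.87 to -0.61. Mmp10 (-1.46, SE 0.99), Mmp13 (-1.50, SE 0.85) and Mmp14 (-0.53, SE 0.45) had adjusted p of 0.51, 0.41 and 0.62.

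Timp1 and Timp3 kept their call in all 12 alternatives of this comparison. Timp2 lost it without Cont replicate 2 (-1.03, adjusted p = 0.12). Mmp2 lost it without any of 5 of the 6 libraries, and without Cont replicate 2 its value was -0.68 (adjusted p = 0.47). It was not called in a fit of the 6 libraries alone either (-1.31, adjusted p = 0.052). Without Cont replicate 1, the library that stood apart, 5 genes were called, with Mmp3 at -2.04 (adjusted p = 0.039). Without Cont replicate 2, only Timp1 and Timp3 were. Mmp3 was also called without the low-count filter and in a fit of the 6 libraries alone (adjusted p = 0.0011). It was called with 2 wells per replicate too (adjusted p = 0.044), which leaves the day 10 counts unchanged. In the other 8 of the 12 alternatives Mmp3 was not called, with adjusted p up to 0.48.

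On days 3, 6 and 8 none of the 8 tested genes was called by edgeR or by DESeq2, where edgeR called 0.0195%, 0.00977% and 1.04% of all genes. At an unadjusted p under 0.05 were 0, 0 and 3 of the 8, against 5.11%, 4.16% and 15.2% of all genes. The 3 genes on day 8 were Mmp3, with a log2 fold change of 2.21 (SE 0.67, adjusted p = 0.087), Mmp2 with 0.83 (SE 0.34, adjusted p = 0.21) and Timp1 with -0.61 (SE 0.24, adjusted p = 0.19). Mmp3 was called on day 8 without +Sm3CA replicate 3, its lowest library (2.72, adjusted p = 0.0054), and without the low-count filter. Without +Sm3CA replicate 2, its highest library, the value was 1.25 (adjusted p = 0.55). The intervals for the inhibitors on day 3 were -0.37 to 0.56 for Timp1, -0.57 to 0.57 for Timp2 and -0.08 to 0.94 for Timp3. Wider intervals of the sparse MMPs, such as -4.44 to 1.29 for Mmp3 on day 3, show that large differences were not detectable at this depth.

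**Figure D3:**
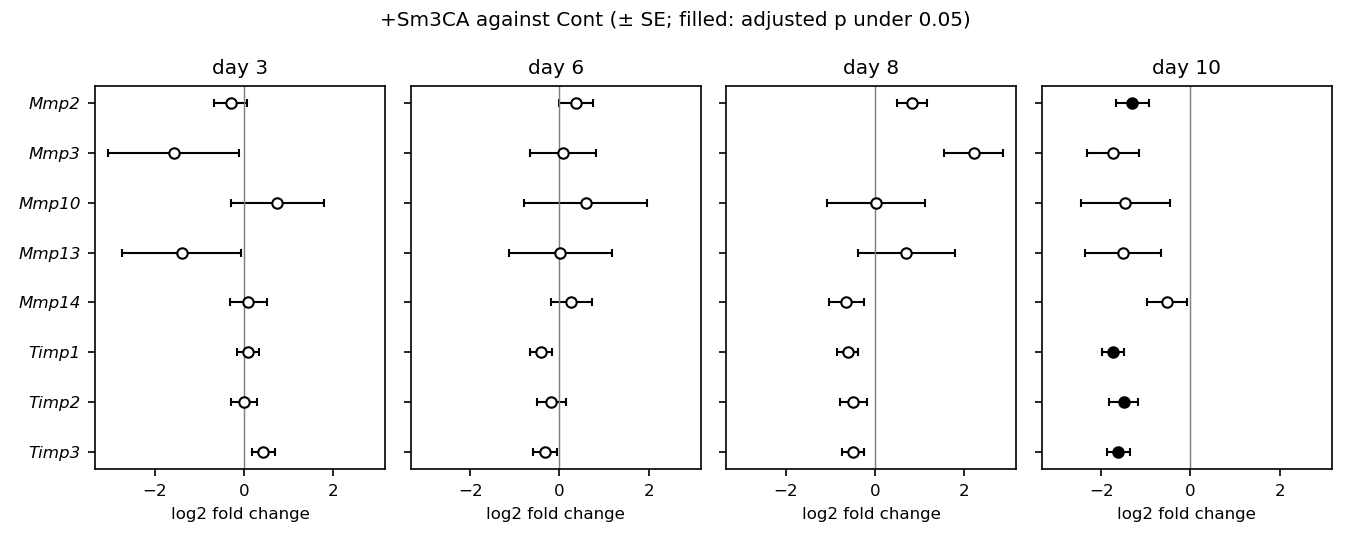
Log2 fold changes of +Sm3CA against Cont on the 4 days. Points are the 8 tested genes with their SE on the x axis, and filled points passed an adjusted p of 0.05. Only day 10 has filled points (Mmp2, Timp1, Timp2 and Timp3), at -1.30 to -1.74.

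The difference itself changed with time for 3 genes. The difference between +Sm3CA and Cont was lower on day 10 than on day 3 for Timp3, by -2.05 on the log2 scale (SE 0.37, adjusted p = 0.0018), and for Timp1, by -1.84 (SE 0.34, adjusted p = 0.0025). These were 2 of the 8 tested genes, against 0.899% of all genes called lower. Timp2 had a change of difference of -1.50 (SE 0.44, adjusted p = 0.095). From day 8 to day 10 Mmp3 was the 1 gene called lower, at -3.95 (SE 0.88, adjusted p = 0.043), against 0.127% of all genes. Its call ended in 7 of the fits without a library, in which either Cont day 8 replicate 1 or 2, Cont day 10 replicate 2 or 3, +Sm3CA day 8 replicate 2, or +Sm3CA day 10 replicate 1 or 3 was left out (adjusted p = 0.092 to 0.19). It ended in DESeq2 too (adjusted p = 0.19). Without +Sm3CA day 8 replicate 2 the value was -2.97. Mmp2 was close to the threshold for the same change, at -2.13 (SE 0.50, edgeR adjusted p = 0.054). At an unadjusted edgeR p under 0.05 were 5 of the 8 tested genes, all lower, against 11% of all genes in either direction.

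Within Cont, Timp1 and Timp2 fell first, and Mmp3 and Mmp13 rose later. From day 3 to day 6 Timp1 fell by 1.37 (SE 0.24, adjusted p = 0.00023) and Timp2 by 1.16 (SE 0.31, adjusted p = 0.012). These were 2 of 8 tested genes, against 4.21% of all genes called lower, and Timp2 lost its call without Cont day 3 replicate 2 or day 6 replicate 1 or 3 (adjusted p = 0.050 to 0.063). From day 6 to day 8 none of the 8 was called by edgeR (1.69% of all genes were) or DESeq2, and 4 had an unadjusted p under 0.05, against 13% of all genes. From day 8 to day 10 Mmp3 rose by 3.65 (SE 0.66, adjusted p = 0.00065), Mmp13 by 3.43 (SE 0.97, adjusted p = 0.045) and Timp1 by 0.86 (SE 0.24, adjusted p = 0.044). These 3 of 8 stand against 1.58% of all genes called higher. Mmp3 alone held its call in all 12 alternatives. Mmp13 lost it with a replicate block, which pairs the replicates over days as the series' design states (3.08, adjusted p = 0.062). Both Mmp13 and Timp1 lost it without Cont day 8 replicate 1 or 2 or day 10 replicate 2 or 3 and in DESeq2 (adjusted p = 0.34 and 0.12), and 6 genes were called without day 10 replicate 1. Mmp13 stood at 5.15 without day 8 replicate 3 and at 2.31 without day 10 replicate 2.

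Over the whole course in Cont, from day 3 to day 10, 4 of 8 genes were called higher, against 13.6% of all genes. Mmp3 rose by 4.92 (SE 0.77, adjusted p = 6.5e-06), from a mean of 3.84 to 95.5 CPM. Its call held in all 12 alternatives, but the value was 7.22 without Cont day 3 replicate 2, which held most reads of that day, and 4.22 without day 3 replicate 3. Timp3 rose by 1.28 (SE 0.26, adjusted p = 0.00027), Mmp13 by 2.91 (SE 0.95, adjusted p = 0.021) and Mmp2 by 1.11 (SE 0.35, adjusted p = 0.016). Mmp2 and Mmp13 were not called without Cont day 10 replicate 2 (0.48 and 1.72, adjusted p = 0.38 and 0.28) or without day 3 replicate 1. Mmp13 stood at 6.32 without day 3 replicate 2. Mmp2 also lost its call without day 3 replicate 2 and Mmp13 without day 3 replicate 3 and in DESeq2 (adjusted p = 0.28). Timp1 (0.19, SE 0.24) and Timp2 (0.01, SE 0.29) were not called, with 95% intervals of -0.28 to 0.66 and -0.57 to 0.59.

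Within +Sm3CA, Timp1 and Timp2 fell by day 6 as well, and no rise was called after it. From day 3 to day 6 Timp1 fell by 1.87 (SE 0.25, adjusted p = 1.3e-06) and Timp2 by 1.35 (SE 0.31, adjusted p = 0.0022), which made 2 of 8 against 8.97% of all genes called lower. Mmp3 rose by 3.39 (SE 1.14, adjusted p = 0.034), 1 of 8 against 9.62% called higher, from 5 reads over the 3 libraries of day 3. That call ended when any single day 3 library or day 6 replicate 1 was left out (adjusted p = 0.063 to 0.30), and with 2 wells per replicate (adjusted p = 0.072). Its value without day 6 replicate 1 was 2.35. None of the 8 genes was called by edgeR from day 6 to 8 or from day 8 to 10, where 6.68% and 4.85% of all genes were called, and DESeq2 called none in either step. At an unadjusted p under 0.05 were 3 and 2 of the 8, against 21.5% and 19.2% of all genes. Without +Sm3CA day 8 replicate 3, 2 genes were called from day 6 to day 8 and 1 from day 8 to day 10, and 1 gene was called from day 6 to day 8 without +Sm3CA day 6 replicate 1.

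From day 3 to day 10 in +Sm3CA all 3 inhibitors were called lower, against 16.2% of all genes. Timp1 fell by 1.65 (SE 0.25, adjusted p = 2.7e-06), Timp2 by 1.49 (SE 0.33, adjusted p = 0.00053) and Timp3 by 0.77 (SE 0.27, adjusted p = 0.024). The Timp3 call ended without +Sm3CA day 3 replicate 1 or 3 or day 10 replicate 2 or 3. Mmp3 rose by 4.76 (SE 1.01, adjusted p = 0.00034), the 1 gene called higher, against 17.6% of all genes. The difference of this rise from that in Cont was -0.16 and was not called (edgeR adjusted p = 0.99). Its SE was 2.95, while the differences it is made of had SEs of 1.46 on day 3 and 0.58 on day 10. No interval is given, because this SE is not reliable for a value so near 0. With 0 to 12 reads a library on day 3, how far the rises differ is not resolved. The comparisons with day 10 share libraries with those above and are not independent of them.

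**Figure D4:**
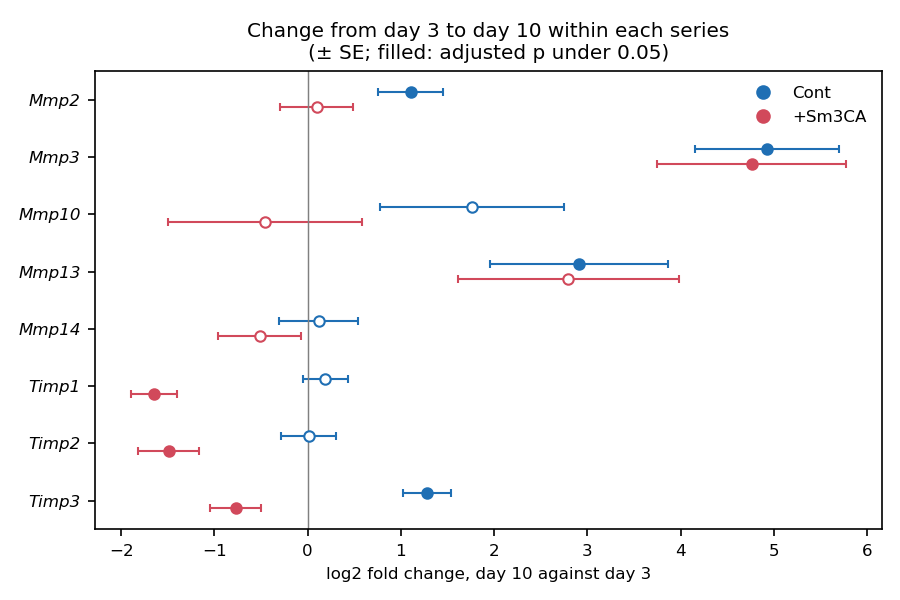
Log2 fold change from day 3 to day 10 within Cont (blue) and +Sm3CA (red). Points are the 8 tested genes with their SE, and filled points passed an adjusted p of 0.05. Mmp3 is at 4.92 in Cont and 4.76 in +Sm3CA, while the inhibitors are at 0.01 to 1.28 in Cont and -0.77 to -1.65 in +Sm3CA.

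MEFs and ESCs mark the ends of the range. All 7 genes tested between them were lower in ESCs, against 28.8% of all 8798 genes tested. The log2 fold change was -5.60 for Timp1 (SE 0.46, adjusted p = 6.8e-08), -7.79 for Timp2 (SE 0.51, adjusted p = 7.7e-09), -5.63 for Timp3 (SE 0.46, adjusted p = 6.8e-08), -6.73 for Mmp14 (SE 0.58, adjusted p = 1.1e-07) and -5.14 for Mmp2 (SE 0.50, adjusted p = 4.3e-07). Mmp3 and Mmp10 had no read in ESCs and were at least 15.6-fold and 14.5-fold lower there, taking 3 reads in each ESC library as the bound (adjusted p = 0.00015 and 8.1e-06). Without MEF replicate 1 these bounds were 5.13-fold and 9.75-fold. Mmp13 was not tested here and was at least 3.29-fold lower, or 2.20-fold without MEF replicate 1. Without ESC replicate 1, which held the most Timp2, Timp3 and Mmp14 reads of the ESCs, the log2 fold changes were -8.44 for Timp2, -6.62 for Timp3 and -7.33 for Mmp14. Timp2 and Mmp14 had 6 and 3 reads in all in ESCs. Their ESC means of 1.40 and 0.80 CPM lie under the 2.61 CPM that 3 reads a library allow, so the size of their fold changes is uncertain. Over the 12 alternatives Mmp14 ran from -6.18 to -9.33.

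Between MEFs and day 3, where source, medium, vector and sort differ too, 7 of 8 tested genes were lower in Cont and 7 of 8 in +Sm3CA, against 20.9% and 20.7% of all 10979 genes called lower. Log2 fold changes of the called genes ran from -1.30 for Timp1 to -3.86 for Mmp10 in Cont and from -1.21 for Timp1 to -5.22 for Mmp3 in +Sm3CA. Mmp13 was not called (-1.11 in Cont, adjusted p = 0.41, and -2.52 in +Sm3CA, adjusted p = 0.084). Mmp3 lost its call in Cont without MEF replicate 1 (-2.09, adjusted p = 0.083), and in +Sm3CA its value was -3.68 without that library. Mmp10 lost its call in +Sm3CA in DESeq2 (adjusted p = 0.058). Its value was -5.89 in Cont without day 3 replicate 2 and -4.79 in +Sm3CA without day 3 replicate 1. These comparisons share the MEF libraries.

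Day 10 cells of both series were still above ESCs in all 8 tested genes, against 30.3% of all genes called lower in ESCs than in Cont and 27.2% in ESCs than in +Sm3CA. Timp1 was lower in ESCs by a log2 fold change of -4.35 (SE 0.34) against Cont and -2.62 (SE 0.32) against +Sm3CA. Timp3 was at -4.83 (SE 0.38) and -3.24 (SE 0.39), and Timp2, with 6 reads in all in ESCs, at -5.58 (SE 0.53) and -4.10 (SE 0.60). Without ESC replicate 1, Timp3 was at -5.87 and -4.30 and Timp2 at -6.26 and -4.80. With the ESC libraries at 3 reads each, Mmp3 was at least 36.6-fold lower than in Cont and at least 10.99-fold lower than in +Sm3CA. Against Cont the bound was 3.29-fold for Mmp10, or 2.13-fold without Cont replicate 2, and its libraries overlapped with ESCs at 0. For Mmp13 it was 10.9-fold, or 4.85-fold without Cont replicate 2, without overlap. For Mmp10 and Mmp13 against +Sm3CA these bounds were 1.27-fold and 3.89-fold, and their libraries overlapped with ESCs at 0. Without +Sm3CA replicate 3 neither bound can be given, because the mean of the other libraries (2.34 CPM for Mmp10 and 2.58 CPM for Mmp13) is under the 2.61 CPM that 3 reads allow in ESCs. Mmp10 lost its call against +Sm3CA without any ESC library or without +Sm3CA day 10 replicate 1 or 3 (adjusted p = 0.070 to 0.13) and with 2 wells per replicate (adjusted p = 0.074). Mmp13 lost it without day 10 replicate 3 (-5.22, adjusted p = 0.12). Both comparisons share the ESC libraries, and the median of all genes was -0.15 in each.

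Some genes of other parts of the same system were lower in +Sm3CA on day 10 too. Of 7 tested genes of MMP activation, docking and clearance, Cd44, a hyaluronan receptor that docks MMP9 (-0.81, SE 0.17, adjusted p = 0.0021), and Lrp1, an endocytic receptor that clears MMPs and TIMPs (-1.28, SE 0.36, adjusted p = 0.032), were lower in +Sm3CA than in Cont. Of 6 genes of plasminogen activation, Serpine2, a serine protease inhibitor, was lower (-1.39, SE 0.28, adjusted p = 0.0019). Among 7 cathepsin and cystatin genes, Ctsl (-1.25, SE 0.18, adjusted p = 1.9e-05), Ctss (-2.16, SE 0.39, adjusted p = 0.00055) and Ctsk (-1.75, SE 0.45, adjusted p = 0.016) were lower; these encode lysosomal cysteine proteases. Of all genes tested, 2.74% were called lower and 0.83% higher on day 10. Median log2 fold changes of the 3 lists were -0.36, -0.96 and -0.40. None of 9 ADAM and ADAMTS genes and none of 12 AP-1 and ETS factors was called by edgeR, and 1 and 2 of them had an unadjusted p under 0.05, against 15.9% of all genes. Of 15 other MMP genes in the table, only Mmp11 was tested (-0.54, SE 0.72, adjusted p = 0.78), and none of 4 other inhibitors (Timp4, Reck, Tfpi2 and A2m) passed the filter.

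ESCs were lower than MEFs in most genes of these lists, where 28.8% of all genes were called lower and 23.5% higher. Of 7 genes of activation, docking and clearance, 6 were called lower, led by Cd44 (-9.71, SE 0.60, adjusted p = 5.0e-09), and 1 was called higher. All 6 genes of plasminogen activation were called lower, led by Anxa2, a plasminogen receptor (-5.64, SE 0.44, adjusted p = 3.9e-08). So were 9 of 10 ADAM and ADAMTS genes, led by Adamts5 (-7.32, SE 0.73, adjusted p = 5.5e-07). All 7 cathepsin and cystatin genes and 6 of 8 AP-1 and ETS factors were lower too, while Etv5, an ETS factor, was higher in ESCs (4.16, SE 0.43, adjusted p = 8.9e-07). Of 4 other MMPs tested, Mmp23 (-8.13, SE 0.98, adjusted p = 9.4e-06), Mmp16 and Mmp19 were lower, as was the inhibitor Tfpi2 (-7.82, SE 0.72, adjusted p = 2.4e-07).

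Markers of some cell types also differed between Cont and +Sm3CA on day 10, when 2.74% of all genes were called lower and 0.83% higher in +Sm3CA. Fibroblast markers summed to 481 to 1159 CPM in Cont and 405 to 551 CPM in +Sm3CA, and 4 of 7 tested (Fbn1, Col1a2, Col1a1 and Postn) were lower in +Sm3CA, by 0.98 to 1.69 on the log2 scale. Myeloid markers summed to 421 to 1784 CPM in Cont and 600 to 1075 CPM in +Sm3CA, with all 8 detected in both, and 1 of 7 tested (Fcer1g, -1.89, SE 0.51, adjusted p = 0.026) was lower. Keratinocyte markers summed to 962 to 1058 CPM in Cont and 275 to 539 CPM in +Sm3CA, and all 3 tested (Krt14, Krt17 and Krt6a) were lower. Of these 3, 2 were called lower on day 8 already, against 0.654% of all genes, when no MMP or TIMP was called. ESC markers summed to 250 to 626 CPM in Cont and 666 to 1508 CPM in +Sm3CA, and 3 of 7 (Zfp42, Dppa5a and Tfcp2l1) were higher. Endothelial markers stayed between 4.36 and 12.9 CPM in both, with 2 of 5 at 0 in each. In bulk samples fewer cells of a type and less RNA per cell cannot be told apart, and the part of these markers in the values of the MMPs and TIMPs was not tested.

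The genes whose log2 CPM followed each of the 8 genes most closely over all 30 libraries were given by Pearson's r as a description, since the MEF and ESC groups alone span most of the range. Timp1 was closest to Sparc (0.979), Tnfrsf12a (0.978) and Wls (0.964), and Timp2 to Tm4sf1 (0.979), Col1a1 (0.977) and Sparc (0.976). Timp3 was closest to Col5a2 (0.955), Mfap5 (0.954) and Zeb2 (0.952). Mmp14 was closest to Serpinh1 (0.946), a collagen chaperone, Col12a1 (0.941) and Bgn (0.935). Mmp2 was closest to Sh3bgrl (0.926), Igfbp7 (0.907) and Atp6ap1 (0.905). Lower values were found for the chromosome 9 genes, with Il1rl1 (0.873), Foxs1 (0.865) and Aebp1 (0.832) for Mmp10, Ifi27 (0.848), Bcl2a1b (0.799) and Vps37a (0.798) for Mmp3, and Snx33 (0.749), Clec4n (0.720) and Evi2a-evi2b (0.675) for Mmp13.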

How the data were processed

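STRT RNA-seq of MEFs, ESCs and reprogramming cells had been run as 84 wells. What the authors deposited are raw counts of reads for each gene in each well, not normalized. The submitters' processing notes name Bowtie 0.12.9, DESeq2 1.6.3 and mm10, and the paper's methods name the automated STRT pipeline and read counts rather than molecule counts. Such reads include PCR copies, so counting intervals and floors cover counting error only. Counts were added up over the wells of a replicate (3, or 2 on day 10), which gave 30 libraries with 1008596 to 2296059 reads each and 195330 to 902989 in a well. Groups, days and replicates came from the labels, and no well was left out. Among 30 pairs of replicates none was identical, and their counts differed by a chi-square of 2.21 to 26.1 per degree of freedom, against 1.01 to 3.52 among wells of a library.

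Counts were tested with edgeR 4.0.16 in R 4.3.3 (filterByExpr, TMM, quasi-likelihood fit and test), and p-values were adjusted after Benjamini-Hochberg across every gene of a fit. The 24 reprogramming libraries entered one fit (10237 genes), MEFs and ESCs another (8798), and all 30 libraries another (10979) for comparisons across both. SE is the log2 fold change over the square root of F, and intervals are 1.96 SE at a level of 95%. The scripts were tested on simulated counts with known changes. Alternatives were DESeq2 1.42.0, its size factors, no low-count filter, 2 wells per replicate, fits of the groups compared alone, a replicate block, and each library left out. A floor is 3 reads per library. The design text pairs replicates over days within each series, and between Cont and +Sm3CA a pairing is not stated. Deviations of same-numbered libraries correlated by -0.15 to 0.14. Log2 CPM for correlations used a prior count of 2. Positions are from GENCODE M21, promoters from RefSeq (GRCm38.p6), and figures were drawn with matplotlib in Python 3.11.15.

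The 9 genes, the other gene lists and the markers were chosen with earlier results of these data known. All 9 were named throughout. Genes of other lists were named mainly from among those called between +Sm3CA and Cont or between ESCs and MEFs, at most 4 per list by adjusted p. Not all called genes were named, and some lists were given as counts only. The 3 genes closest to each of the 8 genes by correlation were named too. Endothelial, keratinocyte, myeloid, fibroblast and ESC markers were summed per library.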

Additional observations from a re-analysis of the deposited data

Results flagged for a closer look

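The difference between +Sm3CA and Cont itself differed between time points for 3 genes, by the interaction term of the edgeR fit. For Timp3 the difference on day 10 minus that on day 3 was -2.05 (SE 0.37, adjusted p = 0.0018), as Cont libraries went from 74.8 to 123 CPM on day 3 to 101 to 305 CPM on day 10 while +Sm3CA libraries went from 89.7 to 162 CPM to 69.3 to 85.0 CPM. For Timp1 it was -1.84 (SE 0.34, adjusted p = 0.0025), with group ranges of 850 to 1187 and 892 to 1459 CPM in Cont and of 706 to 1529 and 259 to 491 CPM in +Sm3CA. Both held in all 18 alternatives, at -1.80 to -2.39 for Timp3 and -1.53 to -2.11 for Timp1. For Mmp3 the difference on day 10 minus that on day 8 was -3.95 (SE 0.88, adjusted p = 0.043), with means of 7.28 ± 3.61 and 95.5 ± 42.8 CPM in Cont and of 35.1 ± 33.5 and 28.7 ± 11.8 CPM in +Sm3CA (SD, n = 3). This call was less stable: it held in 10 of 18 alternatives and was lost in 8 (adjusted p up to 0.19).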

How the results depend on the processing

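The 62 gene comparisons that were followed were those called above, plus Mmp3 between +Sm3CA and Cont on days 8 and 10, which was not called. None of their directions turned in 753 alternatives: 693 kept their side of the threshold, 54 lost it and 6 gained it. All gains were those of Mmp3, 2 on day 8 and 4 on day 10. This tally covers results picked for their call and leaves out the other uncalled genes, whose gains show only in the counts below. Without the low-count filter, 1 of the 9 genes was called between +Sm3CA and Cont on day 8, 2 in Cont from day 6 to 8, 1 in +Sm3CA from day 6 to 8, 1 from day 8 to 10, and 4 for the change of difference from day 8 to day 10. Fits of the 6 libraries compared called 2 in Cont from day 6 to 8, and 5 for ESCs against Cont or +Sm3CA on day 10, where fewer genes were tested. DESeq2's Wald test called 1 in Cont from day 8 to 10 and 0 for the change of difference from day 8 to 10.

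With each library left out in turn, the genes called between +Sm3CA and Cont numbered 0 to 1 on day 8 and 2 to 5 on day 10. In Cont they numbered 1 to 2 from day 3 to 6, 1 to 6 from day 8 to 10 and 2 to 4 from day 3 to 10. In +Sm3CA they numbered 0 to 2 from day 6 to 8 and 0 to 1 from day 8 to 10. For the change of difference from day 8 to 10 they numbered 0 to 3. With the replicate block, 1 call was lost, Mmp13 in Cont from day 8 to day 10 (adjusted p = 0.062), and Timp1 on day 10 was at -1.73. For each change, the cause was not tested. All 90 group means under DESeq2 scaling were within 1 SD of those given. Genes of few reads (Mmp9, Mmp10 and Mmp13) are limited by depth.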
